A study of Oryza sativa Indica Group with 6 samples.

Results

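The genes described here activate, break down and respond to cytokinin in rice. They were taken from the NCBI rice gene table by name, as every gene called RR or ORR with a number, CKX with a number, LOG, LOGL with a number, or HK with a number from 1 to 6, with or without the prefix Os. The table held 40 such genes, and 28 of them had a transcript cluster (the set of probes summarised as one transcript on the array) that the platform table pairs with that gene alone. These 28 were measured among 14662 genes and 41770 clusters in all, each by a single cluster. The 12 genes not measured were *LOGL3*, *LOGL6*, *LOGL10*, *CKX1*, *CKX11*, *HK3*, *HK4*, *RR2*, *RR7*, *RR13*, *RR24* and *RR27*.

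RNA came from whole 10-day seedlings of the *indica* rice cultivar MR219 grown on MS medium, with root and shoot together. The control group was wild type and the other group was rice of the same cultivar overexpressing *Abp57*, which encodes an auxin-binding protein, grown from T3 seed after *Agrobacterium*-mediated transformation. Each group had 3 arrays, each from a biological replicate of at least 3 seedlings. The samples hold no rice transformed with an empty vector, so transformation and *Abp57* cannot be told apart, and the promoter of the transgene and the number of lines in a replicate are not stated in the sources used. The values are log2 signals, where a difference of 1 is a 2-fold change. In whole seedlings a smaller share of the cells that use a gene and less RNA per cell cannot be told apart.

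Cytokinins are adenine derivatives that promote cell division in the shoot meristem and restrain root growth. LOG enzymes release the active free base from its nucleotide, and cytokinin oxidases (CKX) destroy it by removing its side chain. The hormone is bound by receptor histidine kinases, from which phosphate passes through phosphotransfer proteins to the response regulators in the nucleus. Type-B response regulators bind DNA and switch on target genes, among them those of the type-A response regulators, which lack a DNA-binding output and damp the response, so that type-A transcripts are widely used as a readout of cytokinin signalling. Auxin acts on the same pathway in shoot and root, and the comparison asks whether these genes differed between *Abp57*-overexpressing rice and the control.

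In limma no gene of the group was past 2-fold with an unadjusted p under 0.05, and none had an adjusted p under 0.05. Over all clusters 0.335% were higher and 0.172% lower at the fold and unadjusted p, and 0.0144% passed the adjusted p. At an unadjusted p under 0.05 alone, 1 of the 28 genes was higher with overexpression and 0 were lower, against 3.27% and 3.62% of all clusters. The methods' one-way test also gave 1 gene at the unadjusted p and 0 at the fold and p (6.41% and 0.309% of all clusters). The log2 fold changes, overexpression minus control, ran from -0.45 to 0.70 with a median of -0.08, and 17 of 28 were below 0. The median over all clusters was -0.03, with 55.7% below 0, and over the 14662 genes with 1 cluster each it was 0.01, with 7152 below 0. With 1 array left out, the median of the 28 genes ran from -0.11 without overexpressing replicate 3 to -0.03 without overexpressing replicate 1. Leaving out 1 array changed the sign of the fold change in 15 of the 28 genes. In 27 it changed the sign or moved the fold change by over 1.5 times, with *LOGL1* as the exception. Neither count was made over all clusters, so neither can be called a trait of this group. A fold change near 0, such as that of *HK1* (0.00) or *CKX9* (-0.01), can change sign with a small shift. The 95% interval of the fold change lay within 2-fold in both directions for 24 of the 28 genes, against 91.4% of all clusters. The 4 exceptions, *RR4*, *RR5*, *RR9* and *RR10*, are all type-A response regulators. For the other 24 genes a change of over 2-fold was outside the interval, a share of 85.7% that was no higher than that of all clusters. It is thus no trait of this group. *CKX9*, *LOGL8*, *RR11* and *RR42* are among the 24 with mean signals under 3.91, the limit of the dimmest 25% of clusters. Of the cytokinin receptors only *HK5* was measured.

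**Figure D1:**
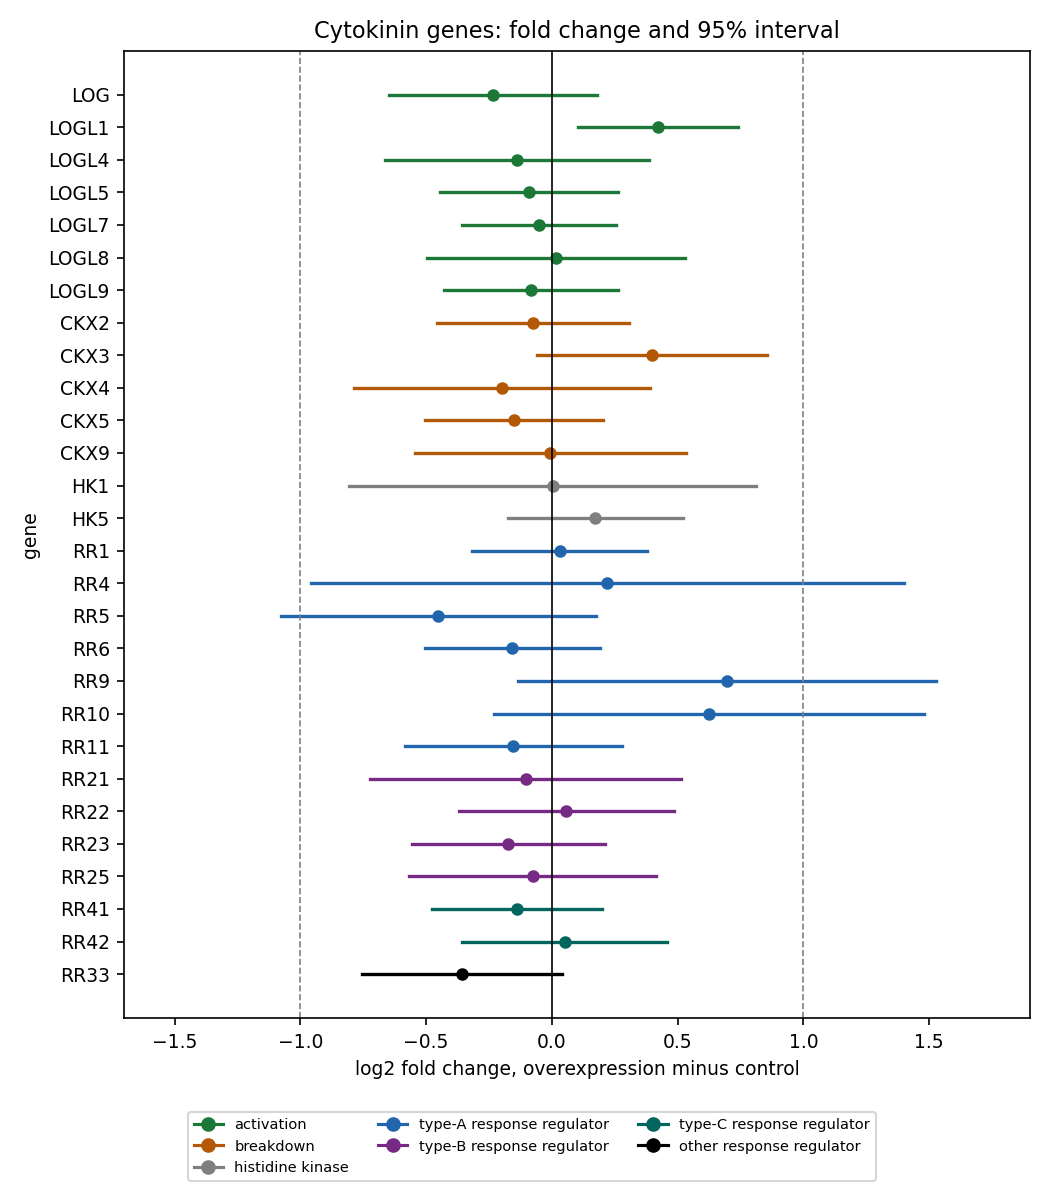
Log2 fold change of each of the 28 genes, overexpression minus control (x axis), with its 95% interval from limma (line) and colour by role; dashed lines mark 2-fold. *RR9* is highest at 0.70 and *RR5* lowest at -0.45, and the intervals that cross a dashed line are those of *RR4*, *RR5*, *RR9* and *RR10*.

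The activation genes gave the one difference at an unadjusted p under 0.05. *LOGL1*, a LOG-like enzyme gene (NCBI gene 4327684, cluster 16401615), had log2 signals of 7.14, 6.88 and 7.11 on the arrays of control replicates 1, 2 and 3 and of 7.42, 7.5 and 7.47 on the overexpressing arrays. All 3 overexpressing signals lay above all 3 control signals, and they spread less (SD 0.04) than the controls (SD 0.14). The log2 fold change was 0.42 (standard error 0.14, 95% interval 0.10 to 0.74). It did not pass the correction over all clusters (limma, adjusted p = 0.662). Without control replicate 2, the lowest of the controls, it was 0.34 with an unadjusted p of 0.058 in limma. *LOG* itself (gene 4324445), whose loss in rice leaves a small inflorescence meristem, had 7.62, 7.62 and 7.55 on the control arrays and 7.36, 7.04 and 7.68 on the overexpressing arrays. The controls lay close together and overexpressing replicate 3 was above them all, so the groups overlapped. The log2 fold change of *LOG* was -0.23 (0.18, interval -0.65 to 0.18), with -0.07 when overexpressing replicate 2 was left out and -0.39 without overexpressing replicate 3 (limma, unadjusted p = 0.056).

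The other 5 measured activation genes lay close to 0, with log2 fold changes from -0.14 for *LOGL4* to 0.02 for *LOGL8*. *LOGL5* had 7.83, 7.70 and 7.55 on the control arrays and 7.68, 7.40 and 7.72 on the overexpressing arrays, so the groups overlapped, with overexpressing replicate 2 the lowest. *LOGL4* had 4.52, 4.25 and 3.96 on the control arrays and 3.82, 3.96 and 4.54 on the overexpressing arrays. Both genotypes thus covered nearly the same span, and its interval was -0.66 to 0.39. *LOGL7* moved least of the activation genes, with a range of 0.22 over the 6 arrays. The 7 activation genes had a median log2 fold change of -0.08 and 2 of them were above 0.

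**Figure D2:**
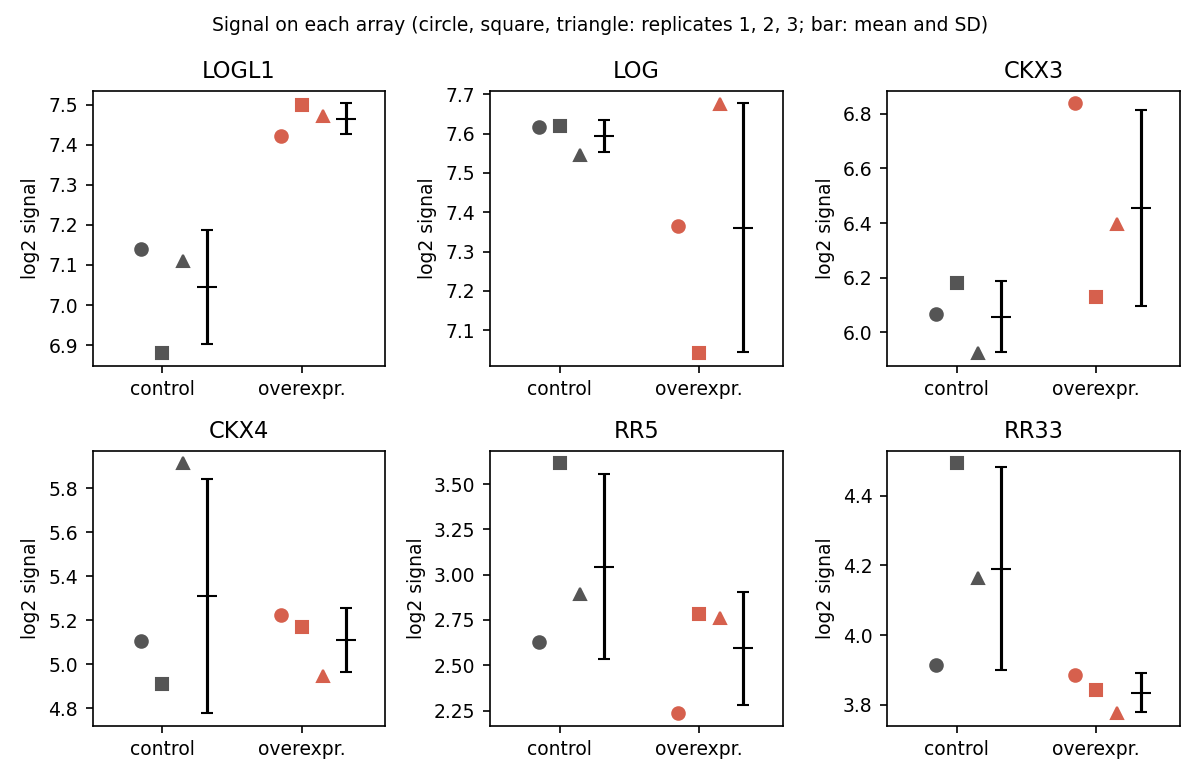
Log2 signal (y axis) of *LOGL1*, *LOG*, *CKX3*, *CKX4*, *RR5* and *RR33* on each array by genotype, with replicates 1, 2 and 3 as circle, square and triangle and the mean with SD at the right of each group (n = 3). The genotypes are apart for *LOGL1* and *RR33* and overlap for the others, and each panel has its own scale, which does not start at 0.

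Of the 5 measured oxidase genes none passed, and 4 had a fold change below 0. *CKX3* (gene 4348932) had 6.07, 6.18 and 5.92 on the control arrays and 6.84, 6.13 and 6.39 on the overexpressing arrays. Overexpressing replicate 2 lay below control replicate 2, and the highest signal was that of overexpressing replicate 1. The log2 fold change was 0.40 (0.20, interval -0.06 to 0.85), with 0.20 when overexpressing replicate 1 was left out and 0.56 without overexpressing replicate 2 (limma, unadjusted p = 0.0248 and adjusted p = 0.708 for the latter). The gene table gives *CKX3* a pair of older locus names, so which copy its cluster reads is not settled here.

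*CKX4*, an oxidase that acts in rice root formation, had 5.11 and 4.91 on control arrays 1 and 2 but 5.92 in control replicate 3, and 5.22, 5.17 and 4.95 on the overexpressing arrays. Its log2 fold change of -0.20 (0.26) rested on that control array and was 0.10 without it. *CKX5* had 6.23, 6.44 and 6.49 on the control arrays and 6.04, 6.39 and 6.27 on the overexpressing arrays, a log2 fold change of -0.15 (0.15). *CKX2*, the grain number gene *Gn1a*, had -0.08 (0.17), with signals of 4.38 to 4.71 on the control arrays and 4.32 to 4.72 on the overexpressing arrays. *CKX9* had -0.01 (0.23) and a control SD of 0.47. It is among the 5 genes, with *LOGL8*, *RR5*, *RR11* and *RR42*, whose mean signal was among the dimmest 25% of all clusters, under 3.91.

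Of the histidine kinases, *HK5* and *HK1* were measured. *HK5* is a cytokinin receptor gene and had 4.49, 4.28 and 4.69 on the control arrays against 4.61, 4.65 and 4.71 on the overexpressing arrays. Control replicate 3 overlapped the overexpressing arrays, and the log2 fold change was 0.17 (0.15, interval -0.17 to 0.52), with 0.07 when control replicate 2 was left out and 0.28 without control replicate 3. *HK1*, listed also as *MHZ1*, is known for ethylene signalling in rice roots and not as a cytokinin receptor, so the receptors rest on *HK5* alone. *HK1* had 4.65 and 4.49 on control arrays 1 and 2, 3.26 in control replicate 3, and 4.43, 3.85 and 4.14 on the overexpressing arrays. Its lowest signal was thus that of a control, and the log2 fold change was 0.00 (0.35) with all arrays and -0.43 without control replicate 3 (limma, unadjusted p = 0.0608).

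The type-A response regulators had both ends of the fold changes. *RR9* (gene 4349747) and *RR10* (gene 4351462) lie in the duplicated ends of chromosomes 11 and 12 and are near-identical copies, so their probes may read the transcripts of both. *RR9* had 9.09, 9.03 and 7.83 on control arrays 1, 2 and 3 and 9.66, 8.83 and 9.55 on the overexpressing arrays. *RR10* had 8.93, 8.83 and 7.65 on the control arrays and 9.38, 8.52 and 9.38 on the overexpressing arrays. Taken as deviations from the 6-array mean of each gene, the profiles of *RR9* and *RR10* differed by at most 0.092 on any array, and the pair is treated here as 1 reading. In both genes control replicate 3 was far below the other controls, and overexpressing replicate 2 lay below control replicates 1 and 2, so the groups overlapped.

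The log2 fold changes were 0.70 (0.36, interval -0.13 to 1.53, adjusted p = 0.749 from limma) for *RR9* and 0.63 (0.37, interval -0.23 to 1.48, adjusted p = 0.780) for *RR10*. They were 0.29 and 0.22 without control replicate 3, and 0.95 and 0.91 without overexpressing replicate 2. The size of this difference therefore depended on 1 array in each genotype. *RR9* had an unadjusted p of 0.0487 without control replicate 1 and of 0.0428 without overexpressing replicate 2, where its adjusted p was 0.874 and 0.712 in limma.

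*RR4* (gene 4325747) varied most of the 28 genes, with a range of 2.17 over the 6 arrays. It had 7.28, 7.19 and 5.45 on the control arrays and 7.62, 6.34 and 6.62 on the overexpressing arrays. The highest signal was that of overexpressing replicate 1 and the lowest that of control replicate 3, and the groups overlapped. The log2 fold change was 0.22 (0.51, interval -0.96 to 1.40) with all arrays, -0.37 without control replicate 3 and -0.16 without overexpressing replicate 1. No direction can therefore be given for *RR4*.

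*RR5* had the lowest fold change of the 28 genes, from dim signals. It had 2.63, 3.62 and 2.89 on the control arrays and 2.24, 2.78 and 2.76 on the overexpressing arrays, and control replicate 2 was the highest. The log2 fold change was -0.45 (0.27, interval -1.08 to 0.17), with -0.17 when control replicate 2 was left out and -0.66 without control replicate 1 (limma, unadjusted p = 0.0458 and adjusted p = 0.874). *RR6*, whose overexpression in rice lowers the response to cytokinin, had -0.16 (0.15), with 6.31, 6.11 and 5.91 on the control arrays and 5.95, 6.03 and 5.87 on the overexpressing arrays. *RR1* and *RR11* had log2 fold changes of 0.03 (0.15) and -0.15 (0.19). Of the 7 measured type-A genes, which with the near-identical pair are at most 6 separate readings, 4 were above 0 and 3 below, with a median of 0.03.

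Of the type-B regulators, which act above the type-A genes, none had an unadjusted p under 0.05 between the genotypes in limma. Their 95% intervals lay within 2-fold, and the widest was that of *RR21*, -0.72 to 0.51. *RR21*, *RR22* and *RR23*, which share functions in rice, had log2 fold changes of -0.10 (0.27), 0.06 (0.19) and -0.17 (0.17), and *RR25* had -0.08 (0.21). *RR21* had 7.83, 7.76 and 8.78 on control arrays 1, 2 and 3 and 7.87, 8.15 and 8.04 on the overexpressing arrays. Here control replicate 3 was the highest array, and without it the log2 fold change was 0.22. *RR23* likewise had 7.5, 7.47 and 7.93 on the control arrays and 7.39 to 7.55 on the overexpressing arrays.

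The type-C regulators resemble the type-A ones but are not known as cytokinin-induced. *RR41* had 4.33, 4.35 and 4.12 on the control arrays and 3.97, 4.14 and 4.27 on the overexpressing arrays, and *RR42* had 3.32, 3.32 and 3.0 on the control arrays and 3.08, 3.17 and 3.55 on the overexpressing arrays. Their log2 fold changes were -0.14 (0.15) and 0.05 (0.18), within the spread between replicates.

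*RR33* (gene 4345758), kept apart because its other name in the gene table, *OsRRA19*, leaves its type open, was the second gene with the genotypes apart. It had 3.92, 4.49 and 4.16 on the control arrays and 3.89, 3.84 and 3.78 on the overexpressing arrays, so that the lowest control lay just above the highest overexpressing array. These signals are dim, and all 3 overexpressing ones lay under 3.91, the limit of the dimmest 25% of clusters by mean signal. The log2 fold change was -0.36 (0.17, interval -0.75 to 0.04, limma adjusted p = 0.741), with -0.21 when control replicate 2 was left out and -0.49 without control replicate 1 (limma, unadjusted p = 0.0253 and adjusted p = 0.874). Over the group 2 of 28 genes had the genotypes apart, 1 in each direction, against 13.0% of all clusters (5.51% higher and 7.53% lower with overexpression).

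**Figure D3:**
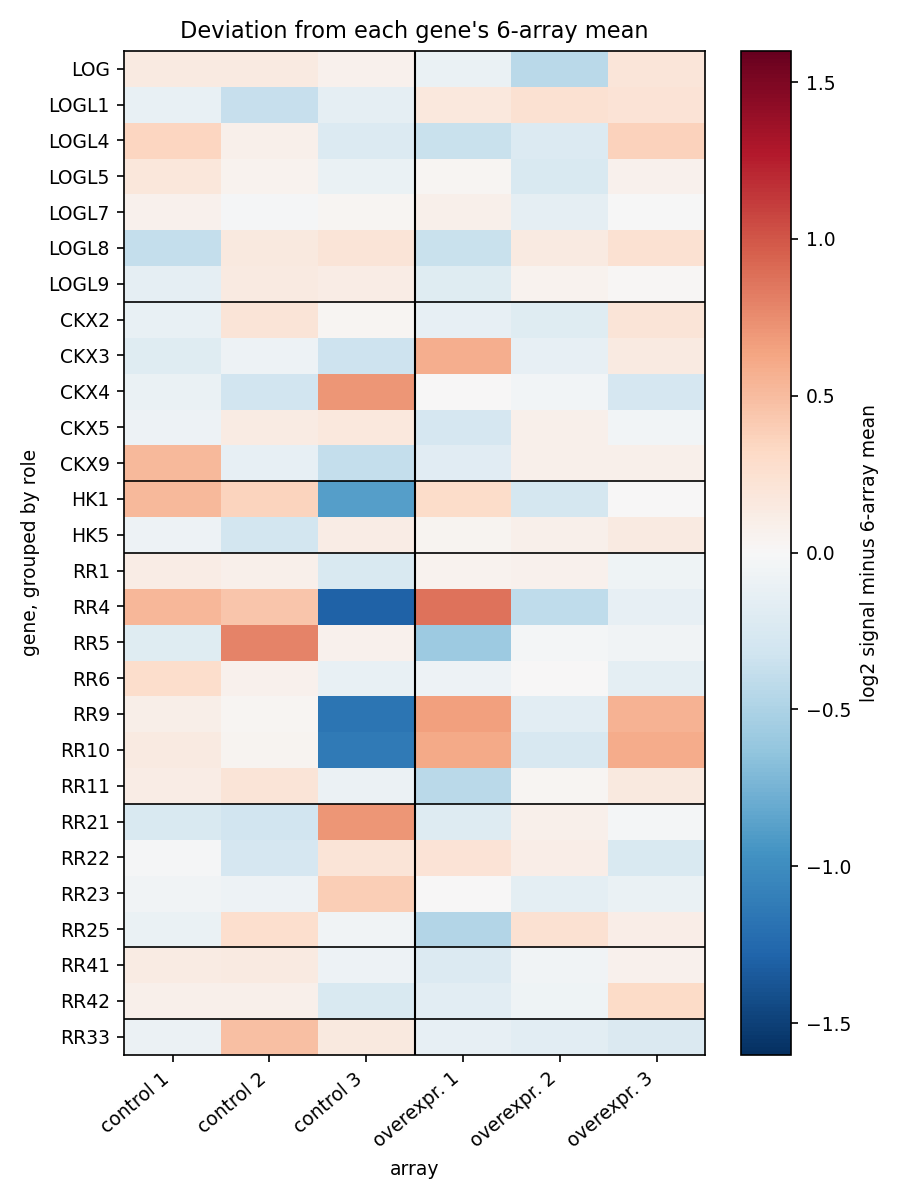
Log2 signal of the 28 genes (rows, grouped by role) on the 6 arrays (columns) minus the mean of each gene over the 6 arrays, with red above and blue below. Control replicate 3 holds the deepest blue, in *RR4*, *RR9*, *RR10* and *HK1*, and red in *CKX4* and *RR21*.

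The widest differences within the group lay between replicates of the control. Each array was set against the mean of the other replicates of its genotype. Control replicate 3 was over 2-fold lower than the other controls in 4 of the 28 genes, *RR4* by a log2 difference of -1.78, *HK1* by -1.31, *RR10* by -1.23 and *RR9* by -1.22, while 2.87% of all clusters were that far below on this array. The near-identical pair makes these 4 genes no more than 3 separate readings. None of the 28 genes was over 2-fold higher in control replicate 3 (1.73% of all clusters), and the nearest were *RR21* with 0.99, *CKX4* with 0.91 and *RR23* with 0.45. The smaller deviations of the type-A genes on this array, -0.34 in *RR1*, -0.30 in *RR6*, -0.26 in *RR11* and -0.23 in *RR5*, were also below 0, and *RR22* was above 0 with 0.35 and *RR25* below it with -0.14. All 7 type-A genes, at most 6 separate readings, were thus lower in control replicate 3 than in the mean of the other controls. Of the 4 type-B genes 3 were higher. Low values were not particular to the type-A genes. *RR41* (-0.22) and *RR42* (-0.32) of type C were lower too, as were *CKX9* (-0.57), *LOGL4* (-0.43), *LOGL5* (-0.22) and *CKX3* (-0.20). Higher values included *LOGL8* (0.32) and *HK5* (0.30). The median difference was -0.17 over the 28 genes and -0.02 over all clusters. The share of all clusters below 0 on this array was not counted. This array was seen to stand apart before these values were described, and no test was made of it. In the methods the RNA integrity number was highest for replicate 3 in each genotype, if the sample numbers there are those of the arrays. The part of RNA integrity in the signals of control replicate 3 was not tested.

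Among the other arrays, overexpressing replicate 1 was over 2-fold above the mean of its other replicates in *RR4*, with 1.14 (1.50% of all clusters were that far above on this array). None was over 2-fold below on it (0.687% of all clusters). No gene of the group was over 2-fold from the other replicates on control replicate 1 (1.28% of all clusters), control replicate 2 (1.06%), overexpressing replicate 2 (0.577%) or overexpressing replicate 3 (0.713%). The median SD of the 28 genes was 0.20 over the control arrays and likewise 0.20 with overexpression, against 0.20 and 0.19 over all clusters. That of the 7 type-A genes was 0.51 and 0.31, which is the value of the dim *RR5*. The near-identical *RR9* and *RR10* both count in it. *RR1*, *RR6* and *RR11* had control SDs of 0.20, 0.20 and 0.16, so a wide spread was not shared by all type-A genes.

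Markers of dividing tissue were low on the same control array. All 10 measured markers (16 listed, of B-type cyclins, CDKB kinases, *PCNA* and the MCM replication proteins) were lowest in control replicate 3, with a median log2 difference of -1.71 from the other controls. Their median deviation from the 6-array mean was 0.64, 0.69 and -1.01 on control arrays 1, 2 and 3 and 0.27, -0.37 and -0.23 on overexpressing arrays 1, 2 and 3. *RR4* had 0.53, 0.44 and -1.30 on the control arrays and 0.87, -0.41 and -0.13 on the overexpressing arrays, with the same sign as the markers on all 6 arrays. *HK1*, which is no type-A gene, had 0.51, 0.36 and -0.88 on the control arrays and 0.29, -0.29 and 0.00 on the overexpressing arrays. *RR9* and *RR10* departed from the markers in overexpressing replicate 3, with 0.55 and 0.60 there. *RR5* and *RR11* did not follow the markers, with -0.58 and -0.43 in overexpressing replicate 1. None of the 10 markers passed an unadjusted p under 0.05 between the genotypes, and their median log2 fold change was -0.23. Low signals in control replicate 3 were not particular to these markers. The shoot markers *PORA* (-1.36) and *RBCS* (-1.08), the root marker *LSI2* (-0.83) and the meristem gene *OSH15* (-1.12) were also below the other controls. The shoot marker *RCA* was above them with 0.60, and the median differences of the shoot and root lists were -0.19 and -0.09. The part of dividing tissue in the signals of *RR4*, *RR9*, *RR10* and *HK1* was not tested.

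**Figure D4:**
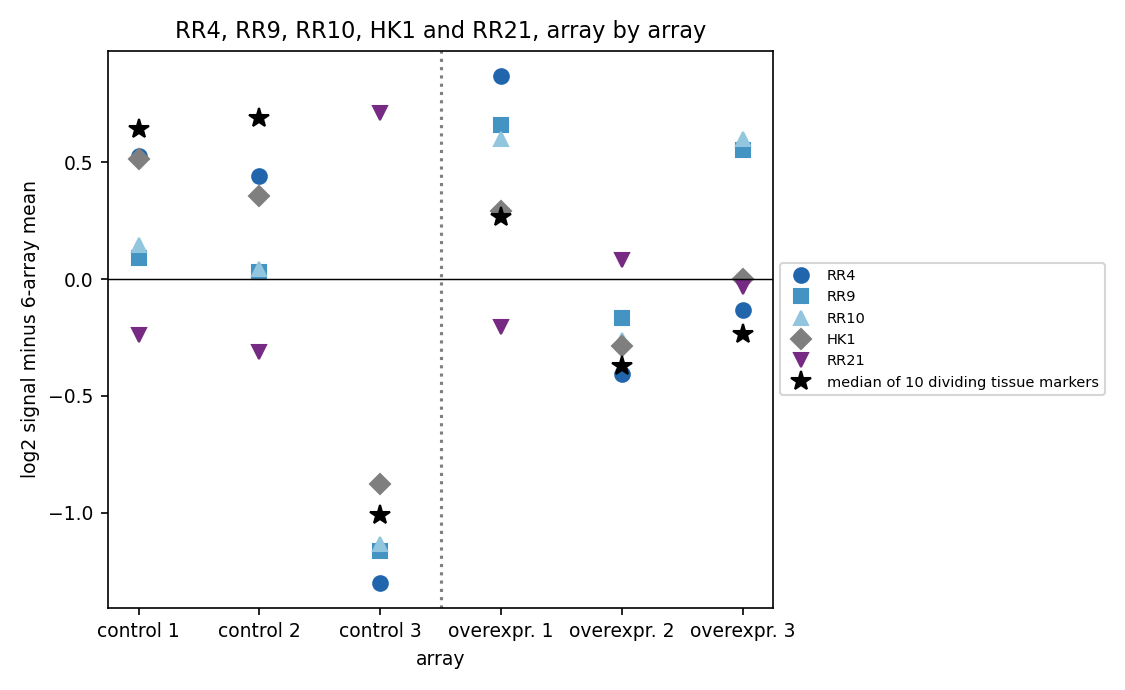
Log2 signal of *RR4*, *RR9*, *RR10*, *HK1* and *RR21* minus the 6-array mean of each gene (y axis) on each array (x axis), with the median of 10 dividing tissue markers as stars. In control replicate 3 the first 4 genes and the markers (-1.01) lie far below 0 and *RR21* above it, and in overexpressing replicate 3 *RR9* (0.55) lies above 0 and the markers (-0.23) below.

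Of the listed markers of the labelled tissue, 7 of 19 for shoot, such as the Rubisco small subunit gene *RBCS*, and 7 of 15 for root, such as the silicon transporter gene *LSI2*, were measured. Signals of different clusters have no common scale, so the tissue label was not checked from their levels. The shoot markers had a median log2 fold change of 0.40, with 3 of 7 higher at an unadjusted p under 0.05 in limma (3.27% of all clusters), and the root markers of -0.03 with 1 of 7 lower (3.62%). The part of the organ shares in the fold changes of the cytokinin genes was not tested.

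Of the other genes of the pathway that had been listed, 7 phosphotransfer genes gave 3 measured ones, and none passed an unadjusted p under 0.05. *AHP1* and *AHP2*, which carry phosphate from receptors to response regulators, had log2 fold changes of -0.11 (0.17) and 0.11 (0.21). *PHP2*, a pseudo-phosphotransfer gene, had 3.07, 2.78 and 3.02 on the control arrays and 5.44, 3.33 and 2.82 on the overexpressing arrays. Its log2 fold change of 0.90 (0.58) rested on overexpressing replicate 1 and was 0.12 without it. The 12 listed genes of cytokinin synthesis and the 13 of transport and conjugation bore no name of the gene table, so hormone synthesis was not analysed here.

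KNOX genes, which keep the shoot meristem undifferentiated and are known to promote cytokinin synthesis there, were measured in 4 of the 6 genes of the list of meristem genes that had a cluster (15 listed). All 6 genes had fold changes below 0, as had 55.7% of all clusters, with a median of -0.28. *OSH3* (-0.05) and *WOX4* (-0.03), the latter not a KNOX gene, lay near 0. In limma 2 of the 6 passed an unadjusted p under 0.05, against 3.62% of all clusters in that direction. They are described after their values were seen. *OSH15* had 5.64 and 5.61 on control arrays 1 and 2, 4.50 in control replicate 3, and 4.50, 4.36 and 4.30 on the overexpressing arrays. Control replicate 3 lay with the overexpressing arrays, and the log2 fold change was -0.86 (0.29, limma adjusted p = 0.668), or -1.23 without that array (limma adjusted p = 0.028, where 151 clusters in all passed). *OSH6* had 6.36, 6.29 and 6.0 on the control arrays and 5.22, 5.65 and 6.0 on the overexpressing arrays, a log2 fold change of -0.59 (0.22, limma adjusted p = 0.682). Left out one at a time, 4 of the 6 arrays took the unadjusted p of *OSH15* over 0.05, and likewise 4 of 6 that of *OSH6*. Both calls were also lost in the methods' one-way test, with unadjusted p = 0.085 for *OSH15* and 0.0775 for *OSH6*.

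**Figure D5:**
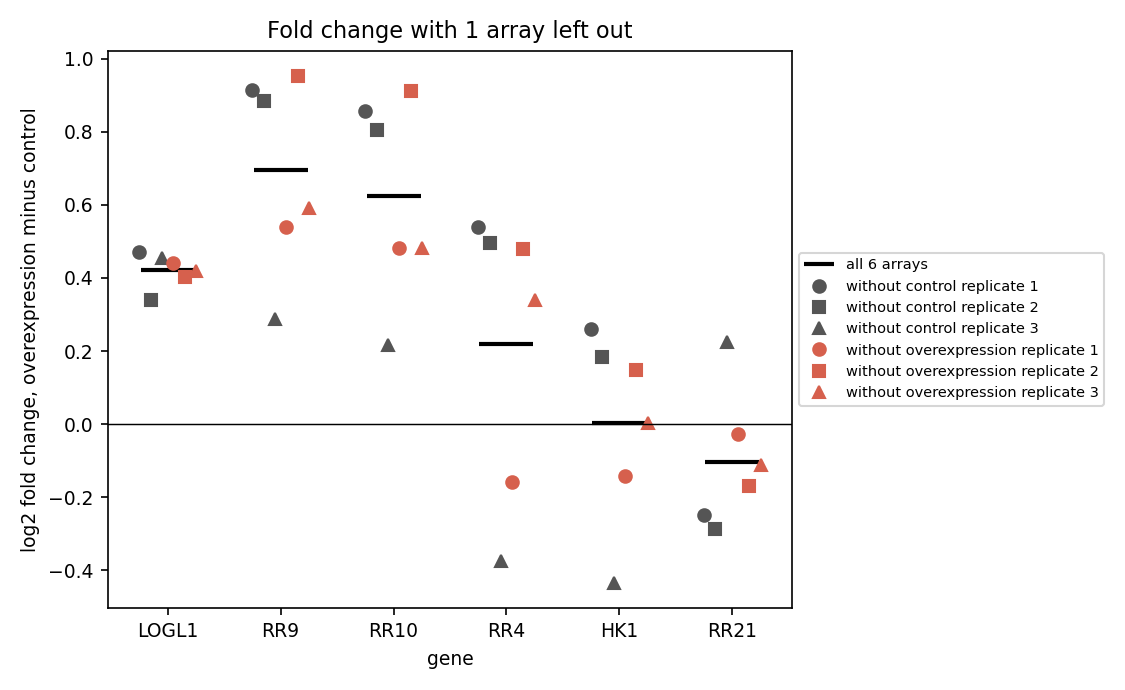
Log2 fold change, overexpression minus control (y axis), of 6 genes from all arrays (bar) and with each array left out in turn (grey for a control, red for an overexpressing array). *LOGL1* stays between 0.34 and 0.47, *RR9* goes down to 0.29 without control replicate 3, and *RR4*, *HK1* and *RR21* change sign without that array.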

How the data were processed

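RNA of whole seedlings was hybridised to Affymetrix Rice (Cn) Gene 1.0 ST arrays, 1 for each replicate. The authors normalized the arrays with RMA in Affymetrix Expression Console (version not stated), and the deposited log2 signals of 41770 clusters were used as they are. RMA brings the probe intensities of the arrays to one distribution before they are summarised. The median cluster signals of the arrays still ran from 5.21 to 5.3. Signals of different clusters have no common scale, and mean signal served only to choose genes and to mark dim clusters. Depth has no counterpart here, and the number of arrays limits the precision. Genes were joined by NCBI identifier (assembly ASM3414082v1), and no coordinates are given because the array is of another subspecies. The 2 genotypes were fitted with limma 3.58.1 in R 4.3.3 (lmFit, eBayes, no block, Benjamini-Hochberg over all clusters), and standard errors stand in brackets after fold changes. The script was tested on simulated signals. Values on all arrays were given for genes with an unadjusted p under 0.05, the 4 highest and 4 lowest fold changes, and the brightest and most variable gene of each role. Values of *RR1*, *RR6*, *RR11*, *RR22*, *RR23*, *RR25*, *CKX2*, *CKX9* and the other listed genes fall outside this rule and were added after they were seen. The members and lists were chosen with earlier results of these data known. Alternatives were the methods' test with plain and Tukey biweight folds, a trend of the variance with intensity, leaving out the dimmest 25% of clusters, quantile and cyclic loess normalization, array weights, a replicate block, the RNA integrity number (RIN) of the methods as covariate, only clusters with 1 gene, all clusters of a gene, and each array left out. Figures were drawn with matplotlib 3.10.9.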

Additional observations from a re-analysis of the deposited data

How the results depend on the processing

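In all 17 alternatives no gene of the group reached both fold over 2 and an unadjusted p under 0.05, nor an adjusted p under 0.05. Genes higher at the unadjusted p numbered 1, and 0 to 3 with 1 array left out, where *LOGL1* was lost without control replicate 2. Genes lower numbered 0, and 0 to 2 with 1 array left out. With a replicate block 1 gene was lower, *RR5* (-0.45, limma unadjusted p = 0.041), and no other call changed. The sources used state no pairing of the arrays beyond the replicate number. Deviations of same-numbered arrays correlated at 0.35, -0.11 and 0.21, and only control replicate 1 was closest to the array of its own number. With so few arrays these values cannot tell whether same-numbered arrays were handled together. The median log2 fold change of the 28 genes, -0.076, was -0.043 with biweight folds, -0.050 after quantile normalization, -0.027 after cyclic loess and from -0.112 to -0.028 with 1 array left out. For the 17 genes that the rule above chose for values on all arrays, 261 of 287 comparisons kept direction and side of the unadjusted p. Of the rest 6 crossed to under 0.05, 1 to over it and 19 changed sign. With biweight folds *LOGL5* had 0.0064, *CKX4* 0.12, *HK1* -0.43, *RR4* -0.63, *RR21* 0.23 and *RR42* -0.17. With array weights *HK1* had -0.31, *RR4* -0.27 and *RR21* 0.11. Signs also changed without 1 array, without control replicate 3 in *CKX4* (0.10), *HK1* (-0.43), *RR4* (-0.37), *RR21* (0.22) and *RR42* (-0.056). Without overexpressing replicate 1 they changed in *LOGL4* (0.0067), *HK1* (-0.14) and *RR4* (-0.16), without replicate 2 in *LOGL5* (0.0093) and without replicate 3 in *RR42* (-0.092). Over the left-out arrays *LOGL4* ranged from -0.35 to 0.0067, *LOGL5* from -0.165 to 0.0093, *CKX4* from -0.40 to 0.10, *HK1* from -0.43 to 0.26, *RR4* from -0.37 to 0.54, *RR21* from -0.29 to 0.22 and *RR42* from -0.092 to 0.15. Averaging the clusters of each gene changed nothing, since each gene had 1 cluster. Without the dimmest clusters 5 genes were not tested. The cause of these shifts was not tested beyond the left-out arrays. Over all clusters 2875 had an unadjusted p under 0.05, with 4479 under array weights, 1858 without control replicate 2 and 4932 without control replicate 3, and the 6 at the adjusted p became 151 without control replicate 3 and 0 without any other single array. Clusters lower at the fold and unadjusted p numbered 72, and under the methods' test 27 with plain folds and 41 with biweight ones, 122 with array weights and 54 to 196 with 1 array left out. Signal over background was not measured, and 3 arrays per genotype limit the precision.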
